A study of Mus musculus with 25 samples.

Results

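The Toll-like receptors examined here were Tlr1, Tlr2, Tlr3, Tlr4, Tlr7, Tlr8, Tlr9, Tlr11, Tlr12 and Tlr13, taken by their gene symbol in the platform annotation. Of these 10 genes, 9 had a row that carried their symbol alone, out of 19938 genes with such a row, and no row stood under the symbol of Tlr11. Expression was read on 25 Affymetrix Mouse Gene 1.0 ST arrays. The cells were sorted from Peyer's patches, lymphoid follicles of the small intestine, of wild type female C57BL/6 mice aged 6 to 8 weeks. Each replicate pooled 42 mice. Untreated mice gave CD11b+ conventional dendritic cells (cDC, 5 arrays), CD11b- CD8a- double negative (DN) cDC (3 arrays), CD8a+ cDC (3 arrays), and LysoMac without and with TIM-4 (TIM-4- and TIM-4+), the lysozyme-expressing macrophages of the patch (3 arrays each). Mice given R848, a synthetic TLR7 ligand, by gavage 9 h earlier gave CD11b+ cDC (3 arrays) and CD8a+ cDC (5 arrays), and their titles also carried the words steady state. All cells were CD11c-high. The cDC were sorted as MHC class II positive and BST2-, SIRPa+ for CD11b+ and DN cDC and SIRPa- for CD8a+ cDC, and LysoMac as MHC class II low, SIRPa+, BST2+ and CD4+. Per the labels, TIM-4- LysoMac lay in the subepithelial dome, DN cDC in the dome, the interfollicular T cell zone or both, and the other groups mainly in the T cell zone.

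Toll-like receptors recognise microbial molecules and signal through adaptors with a TIR domain, mostly MyD88. Tlr3, Tlr7, Tlr8, Tlr9 and Tlr13 sit in endosomes and read nucleic acids, and they need the chaperone Unc93b1 to get there. R848 (resiquimod) acts through TLR7 in mice, where TLR8 has long been regarded as poorly responsive to it. Tlr11 and Tlr12 bind profilin of Toxoplasma, while Tlr1, Tlr2 and Tlr4 act at the cell surface on bacterial lipopeptides and lipopolysaccharide.

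Values are log2 signals computed by the authors with the RMA method, so a difference of 1 is a 2-fold change, and levels were compared between groups within a gene, never between genes. Row order differed between columns of the deposited table. The row names fitted the 8 R848 arrays, and the rows of the 3 untreated CD8a+ arrays and of the 14 other untreated arrays were matched to them by an alignment that kept row order. A row was used where its partner had a posterior probability of at least 0.95 in all 3 alignment settings. Both untreated sets had such rows for Tlr2, Tlr4, Tlr9, Tlr12 and Tlr13. In untreated CD8a+ cDC, Tlr8 was also matched, but Tlr1, Tlr3 and Tlr7 were not. The other untreated groups had matched rows for Tlr1 and Tlr3 but none for Tlr7 or Tlr8. Groups were compared with limma over all genes, and a difference was called at a Benjamini-Hochberg adjusted p below 0.05.

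The array sets also differed in their distribution of values. The highest 0.1% of genes began at 12.1 to 12.2 in untreated CD8a+ arrays, at 12.3 to 12.4 in R848 arrays, at 12.5 to 12.6 in most other untreated arrays and at 12.7 in CD11b+ replicates 4 and 5. The untreated CD8a+ arrays formed a set of their own, and both R848 groups shared another, so in any comparison across sets the array set and the group cannot be told apart. Comparisons of receptors across sets are therefore given with the median of all genes beside them, except where stated. Of the genes called, 17.8% were higher in CD8a+ than in CD11b+ cDC as deposited, 59.0% with array medians made equal and 49.6% with cyclic loess. The same shares were 21.9%, 73.2% and 49.6% for CD8a+ against DN cDC, 74.2%, 35.2% and 51.5% for LysoMac against CD8a+ cDC, and 60.3%, 32.6% and 63.4% for DN against CD11b+ cDC. They were 42.4%, 56.4% and 51.4% for the R848 response of CD11b+ cDC, 74.5%, 51.1% and 50.6% for that of CD8a+ cDC, and 82.2%, 45.0% and 48.3% for the difference between both responses. Cell type markers outside the gates were also checked. Xcr1, a receptor of CD8a+ cDC, was at 10.84 to 10.95 in untreated CD8a+ cDC and at most 4.26 in the other untreated groups, and Mertk, a macrophage receptor, was at 8.39 to 8.93 in LysoMac and at most 3.76 in untreated cDC. Of 5 listed CD8a+ cDC markers 4 were higher than in CD11b+ cDC and 1 lower, Batf3 (8.39 against 8.90). Of all genes 8.3% were higher and 38.4% lower there. Of 7 macrophage markers 6 were higher in LysoMac than in CD11b+ and DN cDC and 1 lower, against 14.7% and 17.1% of all genes. The lower one was Fcgr1, at 4.30 in both LysoMac groups, 4.16 in CD11b+ and 5.06 in DN cDC. Sirpa, a gate marker, was at most 5.99 in untreated CD8a+ cDC and at least 9.99 in the other untreated groups. Itgam, which encodes the gate marker CD11b, was at 4.20 in CD11b+ and 4.21 in CD8a+ cDC after R848, below the background level described next.

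As a reference for a silent gene, the 95th percentile of olfactory, vomeronasal and taste receptor genes was taken in each group, which lay between 4.10 and 4.32. Of 52 group means of the 9 receptors on matched rows, 45 were above this level and 40 above the 99th percentile. Tlr1, Tlr2, Tlr3, Tlr9, Tlr12 and Tlr13 were above the 95th percentile in every group with a matched row. Tlr4 was above it in LysoMac but in none of the cDC groups, and Tlr8 in CD11b+ cDC after R848 only. Probe affinity differs between rows, so this level is only a guide.

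**Figure D1:**
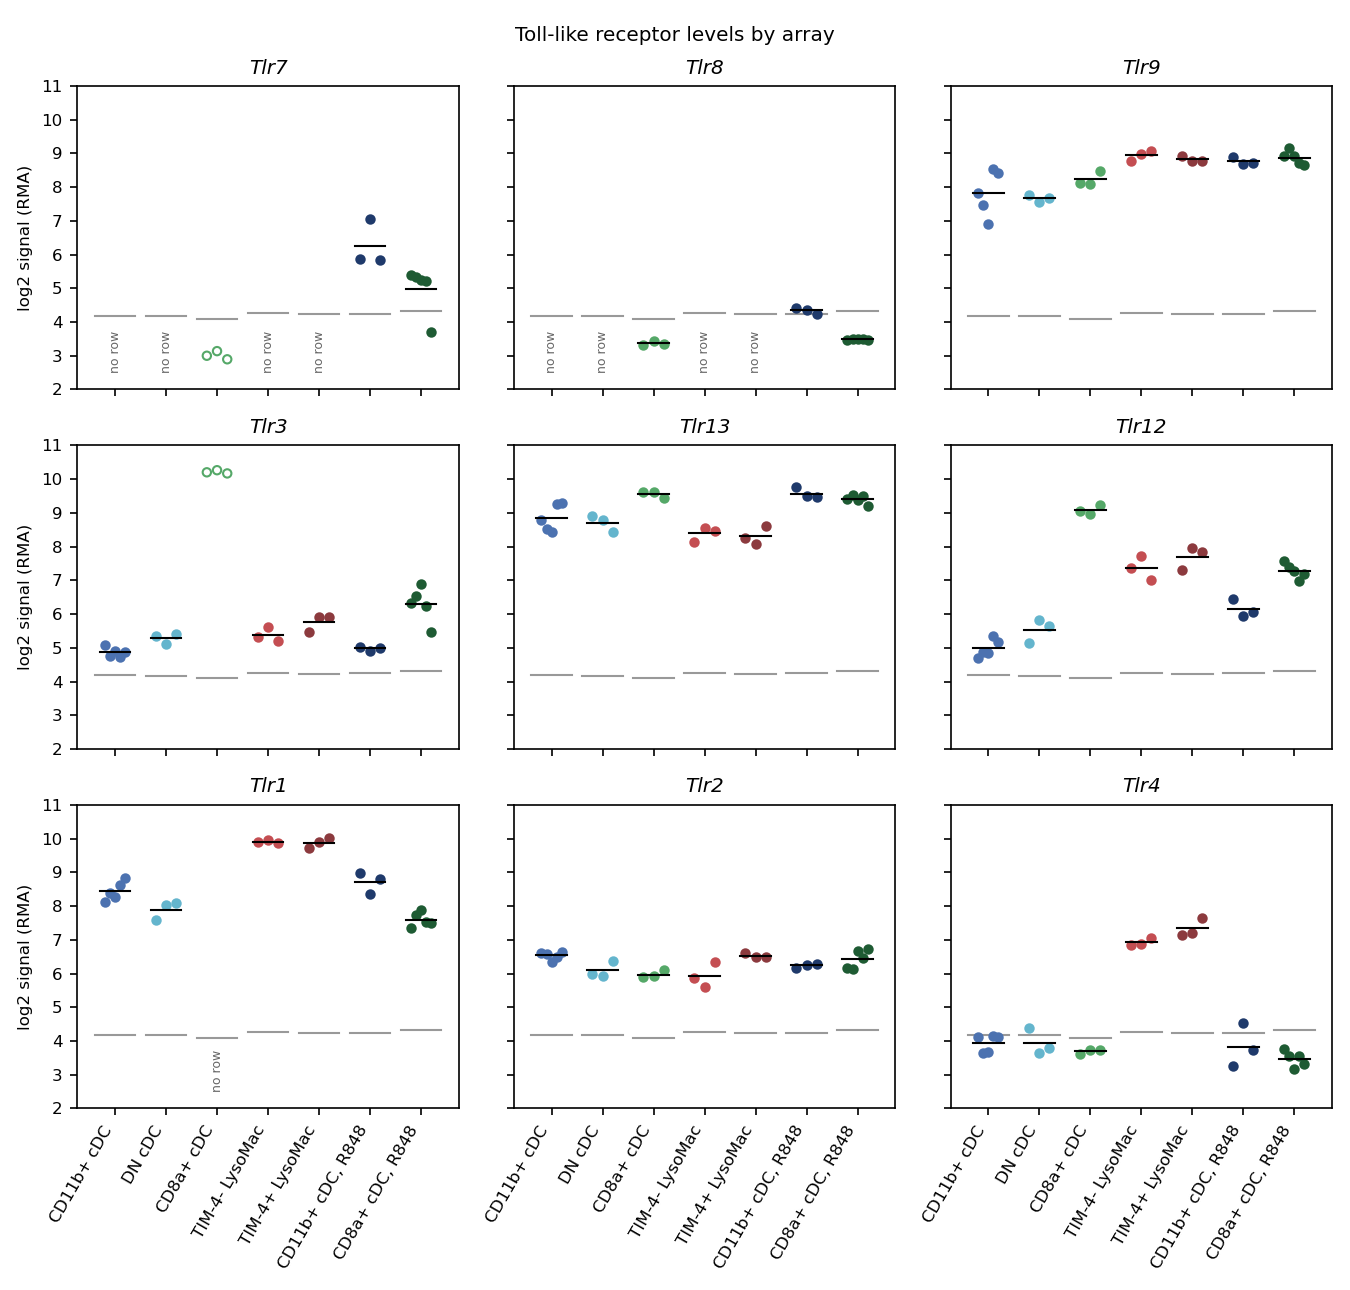
Log2 RMA signal of 9 Toll-like receptors (vertical axis) in the 7 groups (horizontal axis), one point per array, with group means as black lines and the 95th percentile of silent receptor genes in the group as grey lines. Open points are provisional rows and "no row" marks groups without a matched row. Tlr4 stood high in LysoMac alone, Tlr12 was highest in untreated CD8a+ cDC, and Tlr7 was read mainly on the R848 arrays.

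Tlr7, the receptor of R848, had firm values on the R848 arrays only. In CD11b+ cDC after R848 it was at 5.86, 7.07 and 5.85 in replicates 1 to 3, and in CD8a+ cDC after R848 at 5.40, 5.33, 5.25, 5.23 and 3.69 in replicates 1 to 5. Every CD11b+ array lay above every CD8a+ array, and the fifth CD8a+ replicate stood far below the other 4. The 3 CD11b+ arrays and 4 of the 5 CD8a+ arrays were above the 95th percentile of silent genes of their group (4.25 and 4.32). The CD8a+ mean was lower by 1.28 ± 0.43 (SE; 95% interval -2.24 to -0.32), which did not pass the threshold (adjusted p = 0.0944, limma). It passed when dim genes were left out of the adjustment (adjusted p = 0.045). Without CD8a+ replicate 5 the difference was -0.96 (adjusted p = 0.0651), and without CD11b+ replicate 2 it was -0.87 (adjusted p = 0.356).

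For untreated CD8a+ cDC, a less strict match that filled short stretches between firm rows placed Tlr7 at 3.00, 3.14 and 2.90, below the 95th percentile of 4.10. This value is provisional, since the posterior of its row was 0.915 in the least favourable setting, and it was not used in the main test. For untreated CD11b+ and DN cDC and for LysoMac the best partner of the Tlr7 row had a posterior of 0.164, so whether these groups carried Tlr7 before treatment was not analysed here.

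Tlr8, the neighbour and closest relative of Tlr7 on the X chromosome, was at 4.43, 4.35 and 4.25 in CD11b+ cDC after R848. Values run in the order of the replicate numbers throughout. In CD8a+ cDC after R848 it was at 3.46, 3.49, 3.51, 3.50 and 3.47. The groups did not overlap, and the measured difference was -0.86 ± 0.07 (adjusted p = 3.5e-06). The CD8a+ mean of 3.49 was below the silent level of 4.32 and the CD11b+ mean of 4.34 barely above its own of 4.25, so no exact size can be read from this difference. Untreated CD8a+ cDC were at 3.32, 3.44 and 3.35, and their difference to R848-treated CD8a+ cDC was 0.11 ± 0.07 (adjusted p = 0.172).

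B cells also express Tlr7 and Tlr9, and B cell transcripts differed between these groups. Over 6 B cell markers the mean level was 7.16, 7.90 and 7.56 in CD11b+ cDC after R848. It was 6.75, 6.74, 6.52, 5.91 and 6.07 in CD8a+ cDC after R848. All 6 markers were lower in the CD8a+ arrays, for example Pax5, a B cell transcription factor, by 1.58 ± 0.21. The array with the highest Tlr7 value, CD11b+ replicate 2, also had the highest B cell level. The array with the lowest Tlr7 value, CD8a+ replicate 5, was at 6.07, above replicate 4 at 5.91. Macrophage markers were lower in CD8a+ cDC for 4 of 7 and plasmacytoid dendritic cell markers for 3 of 7. On both lists 0 were higher, and 6.76% of all genes were lower. In these bulk samples fewer cells of a type and less RNA per cell cannot be told apart. The part of all these transcripts in the Tlr7 and Tlr8 values was not tested.

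**Figure D2:**
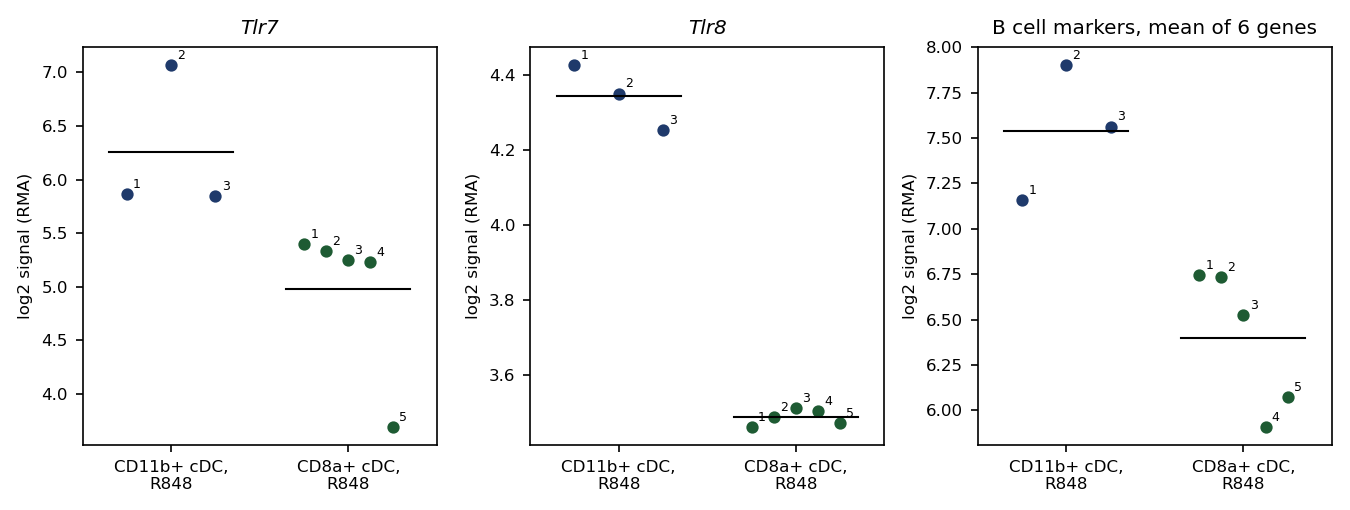
Log2 RMA signal of Tlr7, of Tlr8 and of the mean over 6 B cell markers (vertical axes, each on its own scale not starting at 0) in CD11b+ and CD8a+ cDC 9 h after R848, one numbered point per replicate with group means as lines. In all 3 panels every CD11b+ array lay above every CD8a+ array.

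In the same R848 arrays, which share one row order, 4 of 9 receptors were called between CD8a+ and CD11b+ cDC, 2 higher and 2 lower, against 12.5% of 19938 genes (5.79% higher and 6.76% lower). Arrays of both groups did not overlap for 5 of the 9 receptors, against 17% of all genes. The median difference was -0.16 over the receptors and 0.03 over all genes. Tlr3, the sensor of double-stranded RNA, was at 6.32, 6.54, 6.91, 6.24 and 5.48 in CD8a+ cDC and at 5.02, 4.92 and 5.00 in CD11b+ cDC. It was higher by 1.32 ± 0.21 (adjusted p = 0.00012), with the fifth CD8a+ replicate again the lowest. Tlr12 was at 7.56, 7.41, 7.27, 6.98 and 7.20 against 6.46, 5.95 and 6.06, higher by 1.13 ± 0.19 (adjusted p = 0.000232). Tlr1, which pairs with Tlr2 to bind triacylated lipopeptides, ran the other way at 7.34, 7.73, 7.90, 7.53 and 7.50 against 8.98, 8.36 and 8.81. Its difference was -1.12 ± 0.17 (adjusted p = 6.62e-05). Tlr2 itself differed by 0.19 ± 0.15 (adjusted p = 0.559) and Tlr4 by -0.37 ± 0.22 (adjusted p = 0.377), the latter between means below the silent level. Tlr9, the sensor of unmethylated DNA, differed by 0.11 ± 0.24 (95% interval -0.38 to 0.60, adjusted p = 0.89). Tlr13, which reads bacterial ribosomal RNA, differed by -0.16 ± 0.18 (95% interval -0.53 to 0.21, adjusted p = 0.731).

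Genes that serve these receptors were read on the same arrays, where 5.79% of all genes were higher and 6.76% lower. Of 11 trafficking genes 1 was higher and 3 were lower in CD8a+ cDC, among them Slc15a3, an endolysosomal transporter of histidine and peptides (-2.10 ± 0.22, adjusted p = 3.88e-07), and Unc93b1 (-0.41 ± 0.11, adjusted p = 0.0118). Ticam2, the adaptor TRAM that links Tlr4 to Ticam1, was the called member of 5 adaptors (-2.30 ± 0.22), a share near the 12.5% of all genes. Myd88 (-0.25 ± 0.18, adjusted p = 0.537) and Ticam1, the adaptor TRIF used by Tlr3 (0.33 ± 0.17, adjusted p = 0.28), did not pass. Ly86, the partner of the receptor homologue Cd180, was lower by 1.86 ± 0.19 and the lipid receptor Cd36 higher by 2.14 ± 0.15. Of 9 transcription factors, 3 were higher and 1 lower, with Irf7 at 1.29 ± 0.15 and Irf8 at 1.05 ± 0.19, and Jun at -1.06 ± 0.14. Of 12 targets of the pathway 4 were higher and 2 lower, with Il1b at -3.86 ± 0.25 and Il6 at -2.42 ± 0.30. Irf5, which acts downstream of Myd88, differed by 0.13 ± 0.13 (adjusted p = 0.675), and the chaperone Cnpy3 by 0.18 ± 0.14 (adjusted p = 0.569).

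LysoMac were compared with CD11b+ and DN cDC within a single array set, and 6 of 7 measured receptors were called, 5 higher and 1 lower, against 31.8% of 18620 genes (14.7% higher and 17.1% lower). Arrays did not overlap for 4 of the 7, against 15.1% of genes. The median difference was 1.14 over the receptors and 0.00 over all genes. The rows of Tlr1, Tlr2, Tlr3 and Tlr9 lay 1, 1, 0 and 3 rows from a gap, where the alignment changed its offset. Those of Tlr4, Tlr12 and Tlr13 lay over 10 rows from one. Tlr4 was at 6.84, 6.87 and 7.07 in TIM-4- LysoMac and at 7.14, 7.21 and 7.66 in TIM-4+ LysoMac. In untreated CD11b+ cDC it was at 4.11, 3.65, 3.69, 4.15 and 4.12, and in DN cDC at 4.40, 3.66 and 3.78. The macrophage and cDC arrays were far apart, and the cDC means did not exceed the level of silent genes. The measured difference was 3.19 ± 0.16 (adjusted p = 2.63e-13). Taken against the silent level of the cDC groups, LysoMac were higher by at least 2.95. The rows of Ly96 and Cd14, which encode partners of Tlr4, were not matched in these groups.

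Tlr12 was the next in size, at 7.35, 7.72 and 7.02 in TIM-4- and 7.29, 7.97 and 7.84 in TIM-4+ LysoMac. CD11b+ cDC were at 4.70, 4.87, 4.85, 5.36 and 5.17 and DN cDC at 5.13, 5.83 and 5.65, with no overlap. LysoMac were higher by 2.27 ± 0.14 (adjusted p = 1.32e-11). Tlr1 was at 9.91, 9.98 and 9.86 in TIM-4- LysoMac and at 9.71, 9.89 and 10.02 in the TIM-4+ cells. It was at 8.13, 8.39, 8.26, 8.62 and 8.84 in CD11b+ cDC and at 7.58, 8.02 and 8.09 in DN cDC. This gave a difference of 1.72 ± 0.12 (adjusted p = 4.47e-10), while Tlr2 differed by -0.08 ± 0.11 (95% interval -0.31 to 0.15, adjusted p = 0.648).

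Among the nucleic acid sensors, Tlr9 was at 8.78, 9.00 and 9.08 in TIM-4- and 8.93, 8.79 and 8.78 in TIM-4+ LysoMac, against 7.84, 7.47, 6.92, 8.53 and 8.43 in CD11b+ cDC and 7.78, 7.55 and 7.68 in DN cDC. LysoMac were higher by 1.14 ± 0.18 (adjusted p = 1.86e-05). CD11b+ replicates 4 and 5 stood apart from replicates 1 to 3, and the difference was 1.35 with replicates 1 to 3 and 0.82 with replicates 4 and 5 alone. Of 6 B cell markers 3 were lower and 1 higher in LysoMac, Cd79b, at 10.09 to 10.49 against 6.83 to 8.68. The mean of all 6 was 5.48 to 5.75 in LysoMac and 5.34 to 6.28 in CD11b+ and DN cDC, with overlap. Over the 4 markers measured on all arrays, which leave out Cd79b, it was 4.18 to 4.47 and 4.53 to 5.22. Siglech, a marker of plasmacytoid dendritic cells, which also express Tlr9, was at 7.35 to 8.79 in LysoMac and at most 5.13 in cDC. Of 6 markers on that list 3 were higher, also Bst2, which the gate selects, and Cox6a2 (0.74 ± 0.14), while Ccr9 (-0.85 ± 0.11) and Spib (-0.88 ± 0.18) were lower and Tcf4 was at -0.17 ± 0.11 (adjusted p = 0.276). Their part in the Tlr9 value was not tested. Tlr3 was higher by 0.50 ± 0.15 (adjusted p = 0.0159) with overlapping arrays. Tlr13 was the only receptor lower in LysoMac, by 0.43 ± 0.13 (adjusted p = 0.0155), also with overlap. That call was lost after cyclic loess (-0.24, adjusted p = 0.105), with only the groups compared in the fit (adjusted p = 0.0587), and without DN replicate 1, TIM-4- replicate 1 or TIM-4+ replicate 2 (adjusted p = 0.0507 to 0.0543).

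**Figure D3:**
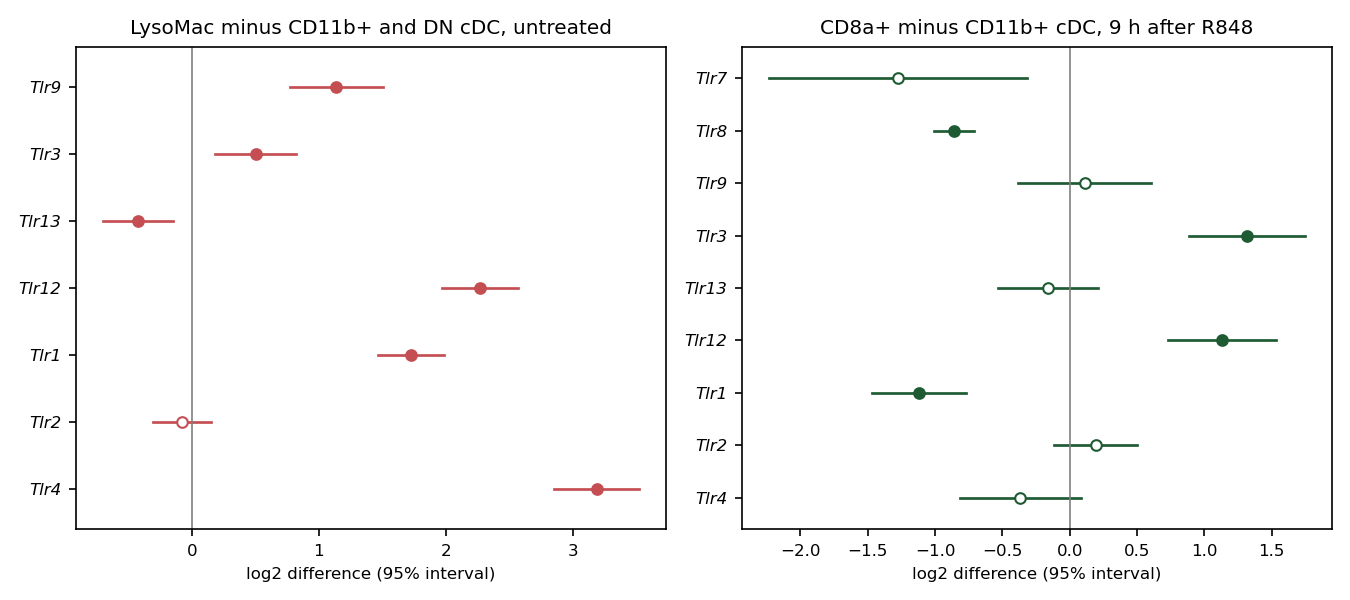
Log2 differences of the Toll-like receptors (horizontal axes) for LysoMac minus CD11b+ and DN cDC in untreated mice (left) and CD8a+ minus CD11b+ cDC after R848 (right), with 95% intervals from limma as lines. Filled points passed the adjusted threshold. In the left panel 5 receptors were higher and Tlr13 was lower, and in the right panel Tlr3 and Tlr12 were higher and Tlr1 and Tlr8 lower.

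Partners of the receptors were read in the same comparison. Trafficking genes were higher in LysoMac for 7 of 11 and lower for 1, against 14.7% and 17.1% of all genes, with Unc93b1 higher by 0.80 ± 0.08 (adjusted p = 3.71e-08) and Cnpy3 at -0.23 ± 0.10 (adjusted p = 0.105). Cd180 was higher by 1.89 ± 0.17. Of 5 receptor-processing proteases 2 were higher and 1 was lower, with Ctsb at 2.15 ± 0.15 and Lgmn at -2.02 ± 0.17. None of 5 adaptors was higher and 1 was lower, with Myd88 at -0.17 ± 0.14 (adjusted p = 0.414) and Ticam1 at -0.30 ± 0.13 (adjusted p = 0.0892). Of 10 kinases and TRAF adaptors 3 were higher and 3 lower, with Ikbke at 3.39 ± 0.07 and Irak2 at 1.52 ± 0.13. Transcription factors were higher for 2 of 9 and lower for 4, with Irf7 at 2.71 ± 0.11 and Irf8 at 2.27 ± 0.14 on one side and Rel (-1.83 ± 0.08), Atf3 (-1.80 ± 0.28), Jun (-1.13 ± 0.11) and Irf5 (-0.68 ± 0.10) on the other. Ddx58, which encodes the cytosolic RNA sensor RIG-I, was higher by 1.24 ± 0.12. Cytokines and other targets of receptor signalling were lower for 8 of 9, led by Ccr7 (-3.95 ± 0.22), Il6 (-2.23 ± 0.22), Il1b (-1.61 ± 0.19) and Tnf (-1.19 ± 0.17).

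Between TIM-4+ and TIM-4- LysoMac 0 of 7 receptors were called, against 0.44% of all genes. Arrays did not overlap for 2 of the 7, against 10.7%. One receptor had an unadjusted p below 0.05 in limma, and limma-trend called 0. That receptor was Tlr2, at 6.63, 6.49 and 6.48 in TIM-4+ and at 5.87, 5.60 and 6.35 in TIM-4- LysoMac (difference 0.59 ± 0.16, adjusted p = 0.196). Without TIM-4- replicate 3 it was 0.79 (adjusted p = 0.0304). The interval for Tlr4 ran from -0.09 to 0.91, so the test leaves a difference of that size possible. DN and CD11b+ cDC likewise had 0 of 7 receptors called against 4.27% of genes (2.58% higher and 1.7% lower) and 2 of 7 without overlap against 9.7%, with 3 unadjusted p below 0.05 in limma and 0 calls in limma-trend. The 3 were Tlr1 (-0.55 ± 0.17, adjusted p = 0.0672), Tlr2 (-0.44 ± 0.15, adjusted p = 0.106) and Tlr12 (0.55 ± 0.19, adjusted p = 0.13). Tlr1 passed without CD11b+ replicate 1 (adjusted p = 0.0316), and with CD11b+ replicates 4 and 5 alone Tlr1 (-0.84), Tlr9 (-0.81) and Tlr13 (-0.58) were lower in DN cDC. With replicates 1 to 3 alone Tlr1 was at -0.37 (adjusted p = 0.387), while Tlr9 (0.26, adjusted p = 0.649) and Tlr13 (0.13, adjusted p = 0.853) turned sign. Endothelial and stromal markers were higher in DN cDC for 7 of 8 and epithelial markers for 3 of 6, against 2.58% of all genes. Emcn, an endothelial marker, was at 7.57 in DN and 3.69 in CD11b+ cDC. The part of these transcripts in the receptor values was not tested.

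Untreated CD8a+ cDC stood out for Tlr12, at 9.06, 8.97 and 9.23 in replicates 1 to 3, above every array of the other 6 groups. Of 5 receptors 2 were higher and 1 was lower than in CD11b+ cDC, against 46.7% of 17497 genes called (8.3% higher and 38.4% lower), and 3 of 5 did not overlap, against 43.5%. Against DN cDC 2 of 5 were higher, where 41.9% of genes were called (9.2% higher and 32.7% lower), and 3 of 5 did not overlap, against 58%. Tlr12 was higher than in CD11b+ cDC by 4.10 ± 0.19 (adjusted p = 3.07e-13) and than in DN cDC by 3.55 ± 0.22 (adjusted p = 2.6e-11), while all genes had medians of -0.19 and -0.16. Its row had a posterior of 0.982 and was not accepted when the alignment used the means of whole array sets. Tlr13 was at 9.61, 9.62 and 9.43, higher than in CD11b+ cDC by 0.69 ± 0.18 (adjusted p = 0.00315) and than in DN cDC by 0.84 ± 0.20 (adjusted p = 0.00175). Against CD11b+ replicates 4 and 5 alone this was 0.27 (adjusted p = 0.187). Tlr2 was lower than in CD11b+ cDC by 0.56 ± 0.15 (adjusted p = 0.00362), or -0.37 relative to the median of all genes, and lost its call after the common median (adjusted p = 0.102) and cyclic loess (adjusted p = 0.0876). Tlr9 was 0.40 ± 0.24 above CD11b+ cDC (adjusted p = 0.173), and it passed with CD11b+ replicates 1 to 3 alone (0.82, adjusted p = 0.00067), after the common median (0.64, adjusted p = 0.0417) and after cyclic loess (0.64, adjusted p = 0.0183). With CD11b+ replicates 4 and 5 alone the Tlr9 difference turned to -0.24 (adjusted p = 0.163). Above DN cDC Tlr9 was 0.57 ± 0.26 (adjusted p = 0.0897), without overlap of arrays. That difference passed after the common median (0.89, adjusted p = 0.0102) and cyclic loess (0.72, adjusted p = 0.0167). It also passed with array weights (adjusted p = 0.0196) and with only the groups compared in the fit (adjusted p = 0.00663). In untreated CD8a+ cDC the rows of Tlr9 and Tlr2 lay 0 and 1 rows from a gap of the alignment. Cd180 was higher than in CD11b+ cDC by 2.45 ± 0.23, Irf8 by 3.13 ± 0.19 and Irf7 by 1.44 ± 0.15, while Slc15a3 (-3.15 ± 0.22), Slc15a4 (-1.38 ± 0.20), Ticam2 (-3.34 ± 0.22) and Ddx58 (-2.21 ± 0.16) were lower.

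Provisional Tlr3 values of untreated CD8a+ cDC were 10.20, 10.27 and 10.17, from a row with a posterior of 0.72, and they were kept out of the main tests. Between LysoMac and untreated CD8a+ cDC 4 of 5 receptors were called, 2 in each direction, against 54.8% of genes (40.7% higher and 14.1% lower in LysoMac), and 4 of 5 did not overlap, against 51.2%. LysoMac were higher for Tlr4 by at least 3.03 over the silent level of CD8a+ cDC (measured difference 3.44 ± 0.21, adjusted p = 6.27e-12) and for Tlr9 by 0.66 ± 0.23 (adjusted p = 0.0188), and lower for Tlr12 by 1.55 ± 0.19 (adjusted p = 4.33e-07) and for Tlr13 by 1.20 ± 0.17 (adjusted p = 4.99e-06). All genes had a median of 0.17 here. The Tlr9 call was lost after the common median (0.38, adjusted p = 0.181), and without CD8a+ replicate 1 or 2 (adjusted p = 0.0729 and 0.0758).

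The response to R848 was read from untreated and treated cells of each subset, across array sets. In CD11b+ cDC 3 of 7 receptors rose and none fell, against 39.7% of 18620 genes called (16.9% higher and 22.9% lower). Arrays did not overlap for 4 of the 7, against 37.2% of genes. Tlr12 rose by 1.17 ± 0.19 (2.25-fold, adjusted p = 5.63e-05), Tlr9 by 0.93 ± 0.24 (adjusted p = 0.00346) and Tlr13 by 0.71 ± 0.18 (adjusted p = 0.003), with no overlap of arrays and a median of all genes of -0.03. For Tlr13 the treated arrays were at 9.76, 9.49 and 9.47 and the untreated at 8.80, 8.52, 8.43, 9.27 and 9.31. For Tlr9 the treated arrays were at 8.90, 8.69 and 8.71. Replicates 4 and 5 of the untreated group were the nearest to the treated arrays for each of these 3 receptors. Against those replicates alone Tlr12 still rose (0.89, adjusted p = 0.00542), while Tlr9 was at 0.29 (adjusted p = 0.115) and Tlr13 at 0.29 (adjusted p = 0.175). Against replicates 1 to 3 alone the differences were 1.35, 1.35 and 0.99 for Tlr12, Tlr9 and Tlr13, and Tlr1 also rose (0.45, adjusted p = 0.0352). Tlr9 lost its call when only both CD11b+ groups were fitted (adjusted p = 0.0673), while Tlr2 was then called lower (-0.30, adjusted p = 0.033). Tlr1, Tlr2, Tlr3 and Tlr4 had differences of -0.30 to 0.27 (adjusted p = 0.116 to 0.728).

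B cell markers also differed between untreated and treated arrays. In CD11b+ cDC 5 of 6 measured markers were higher after R848, against 16.9% of all genes, with Ms4a1 (CD20) higher by 2.74 ± 0.28. The mean of 4 markers measured on all arrays ranged from 4.63 to 5.22 before and 6.01 to 6.81 after. CD11b+ replicates 4 and 5 had the highest values of the untreated group, 5.22 and 5.18. Among the treated CD11b+ arrays, replicate 1 had the lowest mean (6.01) and the highest Tlr9 (8.90), Tlr12 (6.46) and Tlr13 (9.76). In CD8a+ cDC 4 of 4 markers were higher after R848, against 41.1% of all genes, with a mean of 4.26 to 4.58 before and 5.09 to 5.66 after. The median difference of all genes was -0.03 in CD11b+ and 0.18 in CD8a+ cDC. B cells express Tlr9, and the part of these transcripts in the receptor values was not tested.

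In CD8a+ cDC, R848 was accompanied by a fall of Tlr12 from 9.06, 8.97 and 9.23 to 7.56, 7.41, 7.27, 6.98 and 7.20. The difference was -1.80 ± 0.19 (adjusted p = 1.25e-07), the opposite of the CD11b+ cDC. The Tlr12 row of untreated CD8a+ cDC was not accepted when the alignment used the means of whole array sets. Of 6 receptors 2 rose and 1 fell, against 55.1% of 18434 genes called (41.1% higher and 14.1% lower). Arrays did not overlap for 4 of the 6, against 55.8%, and all genes had a median of 0.18. Tlr9 rose from 8.13, 8.10 and 8.48 to 8.92, 9.16, 8.92, 8.71 and 8.67 (0.64 ± 0.24, adjusted p = 0.0265). Tlr2 rose from 5.89, 5.92 and 6.11 to 6.17, 6.14, 6.67, 6.45 and 6.73 (0.46 ± 0.15, adjusted p = 0.012). Relative to the median of all genes these were 0.46 and 0.28. Both calls were lost after the common median (adjusted p = 0.119 for Tlr9 and 0.121 for Tlr2) and without untreated replicate 1 (adjusted p = 0.0893 and 0.0533). The Tlr9 call was also lost without untreated replicate 2 (adjusted p = 0.0913) and without treated replicate 2 (adjusted p = 0.0591). Tlr13, Tlr4 and Tlr8 differed by -0.14 ± 0.18, -0.22 ± 0.22 and 0.11 ± 0.07 and did not pass. Markers of CD8a+ cDC fell too, with 4 of 6 lower and 0 called higher, and Xcr1 went from 10.84 to 10.95 down to 8.39 to 8.82. Cd8a itself did not fall, at 10.02 to 10.13 before and 10.36 to 10.83 after. Neutrophil markers were higher for 4 of 5, with S100a8 at 2.59 ± 0.52, and T cell markers for 2 of 3. The mean over the 5 neutrophil markers was 3.20 to 3.35 before and 3.84 to 4.36 after. Before R848 each of them was below the silent level of 4.10. The median of the silent genes was 3.09 before and 3.30 after. The part of these transcripts in the Tlr12, Tlr2 and Tlr9 values was not tested.

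The responses of both subsets were set against each other in an interaction contrast, in which 3 of 5 receptors were called, against 31.9% of 17497 genes (26.2% higher and 5.69% lower). Tlr12 differed most, with a change in CD8a+ cDC minus that in CD11b+ cDC of -2.97 ± 0.27 (adjusted p = 1.32e-07), against a median of 0.21 for all genes. It rests on the same untreated CD8a+ row, which the alignment on means of array sets did not accept. For Tlr13 the same quantity was -0.85 ± 0.25 (adjusted p = 0.0132), and -0.43 with CD11b+ replicates 4 and 5 alone (adjusted p = 0.115). For Tlr2 it was 0.76 ± 0.21 (adjusted p = 0.00898), a call lost after the common median (adjusted p = 0.0921) and cyclic loess (adjusted p = 0.0592). For Tlr9 the difference between the changes was -0.29 ± 0.33 (95% interval -0.98 to 0.41, adjusted p = 0.53). It was -0.71 and called with CD11b+ replicates 1 to 3 alone (adjusted p = 0.0218), and 0.35 with replicates 4 and 5 alone (adjusted p = 0.131). For Tlr4 it was -0.12 ± 0.30 (adjusted p = 0.793).

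**Figure D4:**
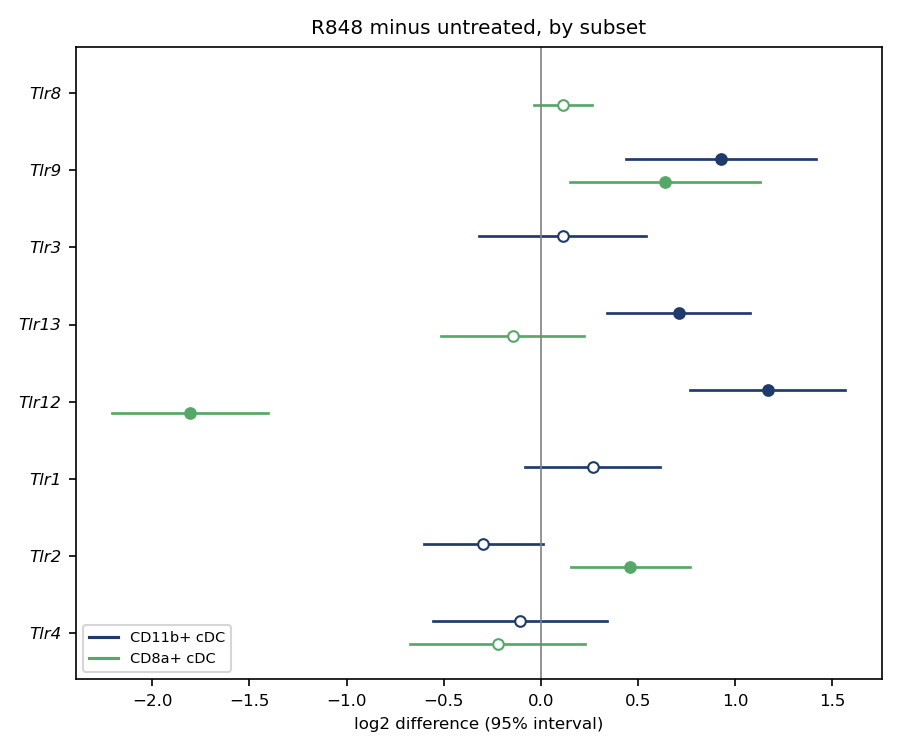
Log2 difference between R848-treated and untreated cells (horizontal axis) for each Toll-like receptor with a matched row, in CD11b+ cDC (dark blue) and CD8a+ cDC (green), with 95% intervals from limma as lines and filled points for calls. Tlr12 rose in CD11b+ cDC and fell in CD8a+ cDC, while Tlr9 rose in both as deposited. The alignment on means of array sets did not accept the Tlr12 row of untreated CD8a+ cDC.

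The start regions of Tlr9, Tlr12 and Tlr13, the 3 receptors called higher in CD11b+ cDC after R848, are printed below. Against CD11b+ replicates 4 and 5 alone only Tlr12 kept this call. In CD8a+ cDC the 3 did not move together, with Tlr12 at -1.80, Tlr9 at 0.64 and Tlr13 at -0.14. The regions run 5' to 3' from 250 bases before to 50 bases after the annotated start, from RefSeq on GRCm38.p6, whose table held such regions for 8 of the 10 receptors. Tlr9 is at chr9:106222348-106222647 on the plus strand, Tlr12 at chr4:128618570-128618869 on the minus strand and Tlr13 at chrX:106143025-106143324 on the plus strand. Capitals mark matches, on either strand, to the PU.1 core GAGGAAG or the AP-1 core TGANTCA.
Tlr9: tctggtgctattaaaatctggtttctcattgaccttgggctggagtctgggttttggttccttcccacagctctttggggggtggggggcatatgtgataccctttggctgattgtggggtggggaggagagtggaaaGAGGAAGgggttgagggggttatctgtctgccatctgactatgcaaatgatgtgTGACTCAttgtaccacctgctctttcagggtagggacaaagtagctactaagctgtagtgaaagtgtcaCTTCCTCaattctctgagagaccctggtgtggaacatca
Tlr12: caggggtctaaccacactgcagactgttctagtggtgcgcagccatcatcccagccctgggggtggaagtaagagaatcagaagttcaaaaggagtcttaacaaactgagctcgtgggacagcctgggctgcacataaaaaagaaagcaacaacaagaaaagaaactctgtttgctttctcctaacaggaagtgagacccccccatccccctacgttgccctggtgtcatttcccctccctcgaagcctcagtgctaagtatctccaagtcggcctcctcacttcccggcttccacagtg
Tlr13: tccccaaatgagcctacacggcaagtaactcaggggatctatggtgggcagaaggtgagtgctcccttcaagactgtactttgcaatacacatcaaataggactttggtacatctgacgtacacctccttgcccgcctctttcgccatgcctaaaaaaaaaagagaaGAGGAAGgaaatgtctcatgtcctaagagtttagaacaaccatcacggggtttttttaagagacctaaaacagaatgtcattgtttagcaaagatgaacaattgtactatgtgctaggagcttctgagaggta
The PU.1 core, bound by a transcription factor of myeloid and B cells, matched 2 times in Tlr9 and 1 time in Tlr13, and 13.6% of all 32851 start regions held it. The AP-1 core matched 1 time in Tlr9 and was in 7.81% of all regions. Neither the interferon-stimulated response element core (3.44% of all regions) nor the NF-kB core GGGNNTTCC (5.82%) was among these letters in the 3 regions, and no motif searched was found in that of Tlr12.

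Single genes of the pathway changed after R848. The list counts below stand against 39.7% of all genes called in CD11b+ cDC (16.9% higher and 22.9% lower). In CD8a+ cDC they stand against 55.1% (41.1% higher and 14.1% lower). The median of all genes was -0.03 in CD11b+ and 0.18 in CD8a+ cDC, here and in the next paragraph. The differences of these genes were not read under other scalings. Irf7, a factor that drives type I interferon genes, rose by 3.80 ± 0.15 in CD11b+ and by 3.65 ± 0.15 in CD8a+ cDC (adjusted p = 7.84e-14 and 2.86e-14). The RNA sensor genes Ddx58 and Ifih1 rose by 1.40 ± 0.16 and 1.13 ± 0.11 in CD11b+ cDC and by 2.70 ± 0.16 and 2.04 ± 0.11 in CD8a+ cDC, and Dhx58 by 1.26 ± 0.14 in CD11b+ cDC. Unc93b1 fell by 0.57 ± 0.11 and 0.97 ± 0.11, and Myd88 by 0.57 ± 0.18 and 0.68 ± 0.18 in the same order. Trafficking genes were higher for 1 and lower for 4 of 11 in CD11b+ cDC, and higher for 3 and lower for 3 in CD8a+ cDC, so the called share was near that of all genes in both. Slc15a3 fell by 1.29 ± 0.22 in CD11b+ cDC and Hps4, a subunit of a complex that builds lysosome-related organelles, by 1.14 ± 0.17 in CD8a+ cDC. In CD11b+ cDC, Furin, a protease that cleaves Tlr7, fell by 1.20 ± 0.13, Irak2 by 1.12 ± 0.18 and Atf3 by 1.14 ± 0.38, while Lgmn rose by 1.19 ± 0.23.

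Read against the same shares of all genes, negative regulators of the pathway were higher for 3 and lower for 5 of 11 in CD11b+ cDC, and higher for 7 with none lower in CD8a+ cDC. Trafd1 rose by 1.22 ± 0.12 and 1.21 ± 0.12 in both subsets, Irak3 by 1.18 ± 0.20 in CD11b+ cDC, and Tank by 2.07 ± 0.11 and Nfkbie by 1.09 ± 0.12 in CD8a+ cDC. Kinases and TRAF adaptors were higher for 4 of 10 and lower for 2 in CD11b+ cDC and higher for 6 of 9 and lower for 1 in CD8a+ cDC, with Traf6 at 1.60 ± 0.17 and Tbk1 at 1.15 ± 0.11. In CD8a+ cDC Rela rose by 1.70 ± 0.18, Nfkb2 by 1.69 ± 0.12 and Rel by 1.23 ± 0.11, whereas Irf8 (-1.45 ± 0.19) and Cd180 (-2.32 ± 0.23) fell. Ticam1 was at 0.38 ± 0.17 in CD11b+ cDC (adjusted p = 0.082) and rose by 0.64 ± 0.17 in CD8a+ cDC (adjusted p = 0.00391), and Irf5 was at -0.16 ± 0.13 and 0.02 ± 0.13 (adjusted p = 0.358 and 0.886). Targets of the pathway moved both ways. Of 9, 2 rose and 2 fell in CD11b+ cDC, a share near that of all genes, and 4 rose and 4 fell in CD8a+ cDC. Ccr7 rose by 1.38 ± 0.29 and 2.84 ± 0.29, Cd40 rose by 1.63 ± 0.12 and Il6 by 1.82 ± 0.30 in CD8a+ cDC, and Cd86 (-2.10 ± 0.19), Il1b (-1.80 ± 0.25) and Il12b (-1.62 ± 0.38) fell there.

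Ranked over the groups with matched rows, 8 of 43 pairs of neighbouring group means passed the threshold. The order came from the same means that were then tested. The share over all genes was not counted, so this count is only a description. The steps of Tlr1, Tlr3 and Tlr13 and the first and last of Tlr12 crossed array sets. No median of all genes is given for them. For Tlr4 the step lay between TIM-4- LysoMac (6.93 ± 0.12, SD, n = 3) and DN cDC (3.95 ± 0.40, n = 3). For Tlr1 it lay between TIM-4+ LysoMac (9.88 ± 0.16, n = 3) and CD11b+ cDC after R848 (8.72 ± 0.32, n = 3). Tlr12 had 3 steps, from untreated CD8a+ cDC (9.09 ± 0.13, n = 3) to TIM-4+ LysoMac (7.70 ± 0.36, n = 3), from CD8a+ (7.28 ± 0.22, n = 5) to CD11b+ cDC after R848 (6.16 ± 0.27, n = 3), and from there to DN cDC (5.54 ± 0.36, n = 3). Tlr13 had 1 step, between CD8a+ cDC after R848 (9.41 ± 0.12, n = 5) and untreated CD11b+ cDC (8.86 ± 0.41, n = 5). Here CD11b+ replicates 4 and 5 were at 9.27 and 9.31, within the range of the treated CD8a+ arrays (9.22 to 9.53). Tlr3 had 1, between CD8a+ cDC after R848 (6.30 ± 0.53, n = 5) and TIM-4+ LysoMac (5.78 ± 0.26, n = 3). Tlr8 had 1, between CD11b+ and CD8a+ cDC after R848. For Tlr2, with group means of 5.94 to 6.54, and for Tlr9, with 7.67 to 8.95, no pair of neighbouring groups passed the threshold, nor did the one pair measured for Tlr7, whose arrays did not overlap.

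The genes whose levels ran most like those of a receptor over the 25 arrays were found among 5324 genes measured on every array with group means spanning at least 1. For Tlr4 these were Ralgds, Cpxm1 and Phyhd1, with Pearson's r of 0.981, 0.979 and 0.978. Tlr12 ran closest to Plin2 (0.922), Irf8 (0.918) and F630111L10Rik (0.906). Tlr13 ran closest to Ttc9c (0.931), Irf2 (0.918) and Fchsd2 (0.910), and Tlr9 to Tapbp (0.898), Cds2 (0.885) and Tspan33 (0.870). Arrays of one group or array set share most of their pattern, so these values describe the 7 groups more than 25 separate points.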

How the data were processed

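The authors deposited log2 signals for 25 arrays, computed with RMA in Affymetrix Expression Console 1.4.1, per the submitters' processing notes. Per the labels' protocols, 2 to 20 ng of total RNA were amplified for each array. Whether they normalized all arrays together is not given in the sources used here.

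A total of 28939 table rows from the first annotated one on were aligned with a pair hidden Markov model (Python 3.11.15, NumPy 2.4.6). It compared untreated with R848-treated means of the same subset, so it can favour rows with small responses. It accepted 25504 rows (88.1%) in the 14 other untreated arrays and 25509 (88.1%) in untreated CD8a+ cDC, against 985 and 1147 with rows rolled out of place. Of the genes, 17497 had a value on all arrays. The main test was limma 3.58.1 in R 4.3.3 on the values as deposited, with all 7 groups, after a check on simulated data. Alternatives were other scalings, filters, rows, alignments, weights, a replicate block and leaving out arrays. All members were named, and of other pathway genes those called with a difference of at least 1, up to 6 a list and comparison, and 6 fixed ones. The alignment was chosen after the table's rows were seen, and members and lists were chosen with earlier results of these data known. The series design calls the replicates independent, and the number of arrays limits the precision.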

Additional observations from a re-analysis of the deposited data

Results flagged for a closer look

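Tlr7 in CD8a+ cDC after R848 had a replicate far from the others of its group. Replicate 5 was at 3.694, and the other 4 were at 5.23 to 5.40. Of 16 groups of 5 arrays checked over the receptors this was the only such value, and chance gives about 1 in 20.

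Changes after R848 differed between CD8a+ and CD11b+ cDC for 3 receptors, by the interaction contrast in limma. The change in CD8a+ cDC minus that in CD11b+ cDC was -2.972 for Tlr12, -0.8531 for Tlr13 and 0.7555 for Tlr2. The untreated CD8a+ row of Tlr12 was not accepted with the alignment on means of array sets.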

How the results depend on the processing

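Of 1278 receptor differences read under another setting, 1201 kept their direction and their side of the threshold, 24 were no longer called, 21 became called and 32 turned sign, of which 0 were called before or after. In LysoMac against CD11b+ and DN cDC, 3 receptors were called after cyclic loess, which could test 5. With rows at least 5 from a gap of the alignment 3 were called, and only these, Tlr4, Tlr12 and Tlr13, were left to test. In DN against CD11b+ cDC, 2 were called after the shift to a common median and 3 with CD11b+ replicates 4 and 5 only, against 0 in the main test; the cause was not tested. In CD8a+ against DN cDC 1 was called with the alignment on means of array sets, which left 4, and in CD8a+ against CD11b+ cDC after R848 1 after cyclic loess, which left 5. In the response of CD11b+ cDC 1 was called with CD11b+ replicates 4 and 5 only. In that of CD8a+ cDC 1 was called after the common median, 1 with rows at least 5 from a gap, which left 4, and 5 with bridged rows, which added provisional Tlr3 and Tlr7. The settings on CD11b+ replicates and bridged rows were chosen after seeing the data.

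Leaving out 1 array gave 5 to 6 calls for LysoMac against CD11b+ and DN cDC, 0 to 1 for TIM-4+ against TIM-4- LysoMac and for DN against CD11b+ cDC, 3 to 4 for CD8a+ against CD11b+ cDC and 2 to 2 against DN cDC, 3 to 5 for LysoMac against CD8a+ cDC, 4 to 4 after R848, 3 to 3 and 1 to 3 for the responses of CD11b+ and CD8a+ cDC, and 3 to 3 for their difference. Samples with the same replicate number did not deviate together (mean r of -0.0028 over 65 pairs, -0.23 to 0.18). The replicate block changed 1 of 63 receptor calls, Tlr9 in the response of CD8a+ cDC (0.49, adjusted p = 0.115 in limma), which left 2 called there, and no other call. It turned the sign of 2 uncalled differences, Tlr9 between CD8a+ and CD11b+ cDC after R848 (-0.041) and Tlr3 in the response of CD11b+ cDC (-0.053). Called neighbouring pairs numbered 6 to 10 over 5 other settings.

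The other turned signs follow, as log2 differences. After the common median Tlr4 in DN against CD11b+ cDC was -0.079, Tlr2 and Tlr4 in CD8a+ against DN cDC were 0.20 and 0.071, Tlr2 in LysoMac against CD8a+ cDC was -0.020 and Tlr8 in the response of CD8a+ cDC was -0.045. After cyclic loess the first 3 were -0.015, 0.11 and 0.0042. With array weights Tlr9 and Tlr13 in DN against CD11b+ cDC were 0.029 and 0.034, and Tlr4 in the response of CD11b+ cDC was 0.012. With CD11b+ replicates 1 to 3 only these 3 were 0.26, 0.13 and 0.024. With replicates 4 and 5 only Tlr4 in DN against CD11b+ cDC was -0.19, Tlr9 in CD8a+ against CD11b+ cDC was -0.24, Tlr1 in the response of CD11b+ cDC was -0.015, and Tlr4 and Tlr9 in the difference between both responses were 0.075 and 0.35.

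Leaving out 1 array, Tlr2 in LysoMac against CD11b+ and DN cDC ran from -0.18 to 0.0033. Between TIM-4+ and TIM-4- LysoMac Tlr1 ran from -0.11 to 0.044 and Tlr13 from -0.22 to 0.051. In DN against CD11b+ cDC Tlr4 ran from -0.22 to 0.15 and Tlr9 from -0.40 to 0.0033, and in CD8a+ against DN cDC Tlr2 ran from -0.21 to 0.014. Tlr4 ran from -0.45 to 0.18 in the response of CD11b+ cDC and from -0.41 to 0.22 in the difference between both responses.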
